A study of Mus musculus with 19 samples.

Results

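Tight junction and desmosome genes were followed here in 3 sorted cell populations of the mouse prostate. The set comprised 50 genes of the 24343 gene symbols in the deposited tables, chosen by name: 23 claudins, 7 genes for the Tjp scaffold proteins, occludin, its Marveld relatives and F11r, 4 Pard polarity genes, 9 desmosomal cadherins, 6 genes of the desmosomal plaque, and Cdh1. The naming rule uses no measured value, though earlier results of these data were known when it was set. Basal, luminal and stromal cells had been isolated by fluorescence-activated sorting from anterior prostates, the lobe pair beside the seminal vesicles, and their RNA was measured by low-input full-length RNA sequencing. One genotype was Lgr5-DTR-eGFP treated with diphtheria toxin, in which the toxin receptor at Lgr5 makes Lgr5-positive cells sensitive to the toxin; Lgr5 encodes a receptor for R-spondins, and the study asked what the loss of Lgr5-positive stromal cells changed. The other genotype was wild type.

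The 2 genotypes came from different sources, the C57BL/6 mice from a vendor and the Lgr5-DTR-eGFP mice from another laboratory, and whether the wild type mice received toxin is not given in the sources used here, nor are the age of the mice or the antibodies of the sort. There were 3 libraries in each of the 6 groups except Lgr5-DTR stromal cells, with 4, so 19 in all. Nothing in the labels says which libraries came from separate animals or pools, so p-values measure the spread between libraries. The depth was 5.26 to 9.38 gigabases of aligned sequence per library. In 7 of the 19 libraries, called the status set below, 424 transcripts carry a low-data status, for a reason that is not known. They are wild type basal 2, wild type luminal 1 and 3, Lgr5-DTR basal 1 and 3, Lgr5-DTR luminal 1 and Lgr5-DTR stromal 3. Lgr5 itself was at 25.8 to 77.7 FPKM (fragments per kilobase of transcript, scaled to the mapped fragments of a library: a level per length) in wild type stromal cells and 0.501 to 1.32 in Lgr5-DTR stromal cells, without overlap. The populations carried the markers of their labels: 12 basal markers (Krt5, Krt14, Trp63 and others) summed to 8282 to 13822 FPKM in basal libraries against 174 to 641 in luminal ones. The 11 luminal markers summed to 16370 to 29351 FPKM in luminal and 3727 to 5009 in basal libraries; Krt8 and Krt18 made up much of the latter.

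Tight junctions seal the space between neighbouring epithelial cells near their apical side. Claudins form the paracellular barrier and set which ions pass, occludin and the Marveld proteins shape the strands and tricellular contacts, F11r (JAM-A) is an adhesion receptor, and the Tjp scaffold proteins tie these membrane proteins to actin. Pard3 and the Pard6 proteins belong to the polarity complex that places the junction. Desmosomes join keratin filaments of adjacent cells: desmogleins and desmocollins are the cadherins that span the gap, and plakoglobin (Jup), plakophilins and desmoplakin (Dsp) link them to keratin. Cdh1 encodes E-cadherin, the adhesion molecule of epithelial adherens junctions. In the prostate, luminal cells line the lumen and carry the apical junctional belt, whereas basal cells lie under them on the basement membrane.

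Promoter sequences were taken from RefSeq for GRCm38.p6, the patched form of the mm10 build used for the deposited values. The table held 30 of the members, with 44 start sites. In the 250 bases before each start, both strands were searched for the Grainyhead-like site AACCGGTT, for the E-box CAGGTG, which reads CACCTG on the other strand and to which repressors of E-cadherin such as Snai2 can bind, and for TATAAA. The Grainyhead-like letters were in 0 of the 44 windows and in 0.116% of the 32851 promoters of the table. An E-box was in 11 of the 44, in 10 members, against 17.2% of all promoters, and TATAAA in 4, against 12.4%. Windows are shown for the most abundant member, Cldn4, and for 2 members that were higher in Lgr5-DTR basal cells, Cldn7 and Pard6b, with E-boxes in capitals, written 5′ to 3′ on the strand of the gene. They lie at chr5:134946935-134947184 on the minus strand, chr11:69965171-69965420 on the plus strand (the start of NM_016887) and chr2:168080754-168081003 on the plus strand.
Cldn4: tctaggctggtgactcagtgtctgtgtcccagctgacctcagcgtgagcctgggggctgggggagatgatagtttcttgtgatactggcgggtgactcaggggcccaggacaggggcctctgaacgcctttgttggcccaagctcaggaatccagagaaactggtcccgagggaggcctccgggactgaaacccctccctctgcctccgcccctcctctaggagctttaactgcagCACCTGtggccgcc
Cldn7: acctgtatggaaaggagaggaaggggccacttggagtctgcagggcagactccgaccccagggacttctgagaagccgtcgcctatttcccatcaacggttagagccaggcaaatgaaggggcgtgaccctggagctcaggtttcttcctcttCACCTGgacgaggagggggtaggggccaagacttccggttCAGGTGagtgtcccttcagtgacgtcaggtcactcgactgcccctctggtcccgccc
Pard6b: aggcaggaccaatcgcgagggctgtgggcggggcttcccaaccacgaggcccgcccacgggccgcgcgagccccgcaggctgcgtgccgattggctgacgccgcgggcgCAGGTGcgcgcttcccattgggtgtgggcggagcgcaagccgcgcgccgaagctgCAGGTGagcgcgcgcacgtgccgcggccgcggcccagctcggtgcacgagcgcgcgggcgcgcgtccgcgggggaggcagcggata
The Cldn4 E-box began 14 bases before the start, those of Cldn7 at 97 and 57 and those of Pard6b at 141 and 86. The windows of Cldn1 and Cldn3 held none of the 3 motifs. Pard3, a member that was lower in Lgr5-DTR basal cells, held 3 E-boxes before the start of NM_001013581, at 220, 203 and 166. Its other window, before the start of NM_001309391, held 0. The match of letters describes the sequence only. Cldn23, Pkp1 and Pkp3 had no entry.

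Of the 50 members, 37 reached 1 FPKM in at least 1 library. The 13 that never did were the claudin genes Cldn2, Cldn9, Cldn11, Cldn13, Cldn14, Cldn16, Cldn17, Cldn18, Cldn19 and Cldn24 and the desmogleins Dsg1a, Dsg1b and Dsg4. Cldn6, Cldn20, Cldn22 and Dsg1c reached it in 1 library each. Members were summed per gene symbol and tested with limma on log2(FPKM + 1) where at least 3 libraries of a fit reached 1 FPKM, with Benjamini-Hochberg adjusted p under 0.05 over all genes as the threshold. All log2 differences below are on that scale, which understates changes of low genes. Cldn3, Cldn20 and Tjp3 overlap another gene (Wbscr25, Tfb1m and Apba3), so their values are uncertain to the extent that the estimate split reads between them.

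**Figure D1:**
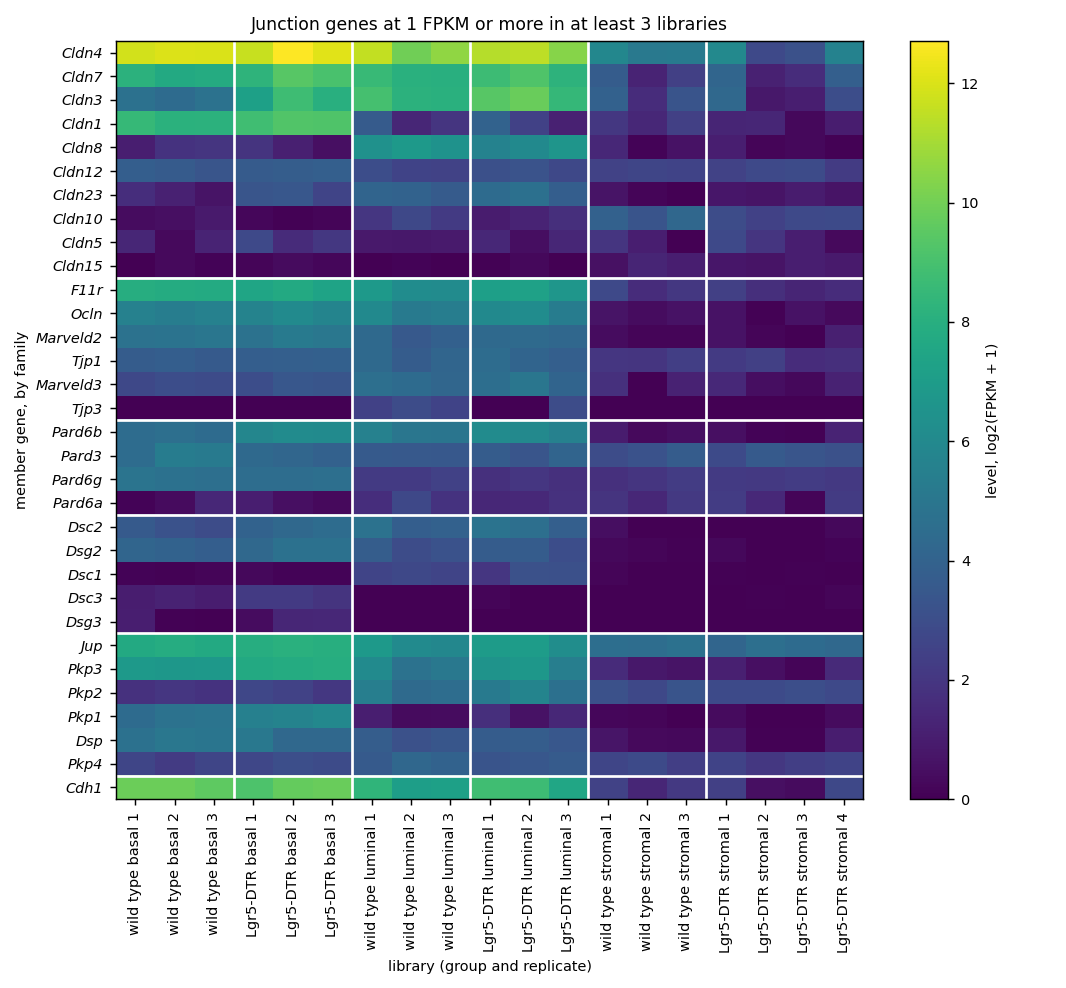
Levels as log2(FPKM + 1) of members at 1 FPKM or more in at least 3 libraries; rows are genes by family, columns the 19 libraries in 6 groups, and brighter colour is a higher level. Cldn4 is the brightest row, and most rows are darkest in the stromal columns; in wild type, Cldn10 and Cldn15 are brightest there.

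The wild type populations had distinct junction profiles. Cldn4, a claudin of tight simple and stratified epithelia, was the most abundant member per length in both epithelial populations, with 3701, 4263 and 4038 FPKM in wild type basal libraries and 2944, 996 and 1573 in luminal ones. It made up 84.3 to 89.0% of the claudin FPKM sum in wild type basal cells. The basal and luminal levels did not overlap, but the difference of 1.26 (SE 0.69) did not pass the threshold (adjusted p = 0.13 by limma).

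Cldn1, the barrier claudin of epidermis, marked basal cells: it was at 360, 280 and 288 FPKM in basal against 11.5, 1.59 and 2.92 in luminal libraries, a difference of 5.94 (SE 0.58, limma adjusted p = 1.64e-07). Pkp1, the plakophilin of stratified epithelia, stood at 20.9, 26.9 and 28.6 FPKM in basal and 1.08, 0.308 and 0.333 in luminal cells (difference 4.09, SE 0.25, adjusted p = 1.66e-10 by limma). Basal libraries also held more Cdh1, at 919, 933 and 749 FPKM against 320, 141 and 151 (difference 2.18, SE 0.55, limma adjusted p = 0.0028). In these 3 genes no luminal library reached a basal one.

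The polarity gene Pard6g was at 24.2 to 28.7 FPKM in basal and 3.47 to 4.48 in luminal libraries (difference 2.51), whereas its relative Pard6b was at 20.97 to 23.9 in basal and 29.6 to 46.4 in luminal libraries (difference -0.63, SE 0.28, limma adjusted p = 0.056). The desmosomal plaque genes Jup (211 to 232 against 58.9 to 114 FPKM), Pkp3 (105 to 112 against 26.4 to 67.5) and Dsp (25.9 to 32.2 against 7.94 to 12.6) were higher in basal cells. So were F11r, Marveld2, Cldn12, Pard3, Dsg2 and Dsc3.

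Luminal cells carried the other profile. Cldn8, a claudin of tight distal renal epithelium, was at 84.1, 118 and 88.7 FPKM in luminal and 1.09, 2.62 and 2.84 in basal libraries (difference of basal minus luminal -4.98, SE 0.38, limma adjusted p = 2.39e-09). Cldn3 was at 500.2, 291 and 267 FPKM in luminal against 25.8, 20.8 and 26.2 in basal libraries (difference -3.76, SE 0.78, limma adjusted p = 0.00062). Cldn23 was at 15.9, 14.9 and 11.6 FPKM against 2.20, 1.26 and 0.566 (difference -2.74). The luminal set of desmosome genes comprised Pkp2 (42.0, 19.8 and 22.1 against 2.55, 3.04 and 2.60 FPKM), Dsc1 (5.11 to 5.79 against at most 0.127), Dsc2 and Pkp4. Marveld3, Pard6a, Cldn10 and Tjp3 were also higher in luminal cells, Tjp3 being listed at 0 in all basal libraries.

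In total 25 of 33 tested members passed the threshold between wild type basal and luminal cells, 14 higher in basal and 11 in luminal cells. Of all 12350 genes tested, 58.2% passed, 23.5% higher in basal and 34.7% in luminal cells; 67.3% did not overlap, 38.9% being lower in basal cells. Among the 33 were 7 with no library at 1 FPKM in 1 or both of the 2 groups, since the level filter ran over all 19 libraries. Ocln, Cldn7, Tjp1, Cldn4, Cldn5, Cldn15, Dsg3 and Pard6b did not pass. Cldn7 was at 209 to 285 FPKM in basal and 257 to 381 in luminal libraries, and Ocln at 40.4 to 46.9 and 35.5 to 64.0; both ranges overlapped.

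In stromal cells most members were at low levels. Of the 33 tested members, 14 in each stromal contrast had no library at 1 FPKM in 1 or both of the 2 groups. Those that were high in the other group had to differ, so the counts are a description. Others, such as Dsc3 between stromal and luminal cells, were low in both groups and had passed the level filter through another population. In all, 22 were lower than in wild type basal cells, where 53.6% of all genes passed, 25.7% being lower (62.7% did not overlap, 30.5% being lower), and 22 were lower than in wild type luminal cells, where 65.1% passed, 37.0% being lower (68.1% did not overlap, 39.2% being lower). These contrasts share the stromal libraries and each shares a group with the contrast above. Cdh1 was at 4.77, 1.62 and 3.39 FPKM in wild type stromal libraries. Cldn10 went the other way, with 14.2, 8.76 and 18.1 FPKM in stromal, 3.07, 5.66 and 3.42 in luminal and 0.348, 0.418 and 0.887 in basal libraries (stromal minus basal 3.21, SE 0.26, limma adjusted p = 3.33e-09). In stromal and wild type luminal libraries its FPKM was assigned to NM_021386 alone. Cldn15, at 0.499 to 1.46 FPKM, was also highest in stromal cells. Jup, at 22.3 to 25.6 FPKM, kept a substantial level in stroma. Pkp2, at 5.80 to 8.79, was above its level in basal cells (mean 7.51 against 2.73) and below that in luminal cells (mean 27.96). In all, 4 members passed as higher in stromal than basal cells, against 27.9% of all genes: Cldn10, Cldn15, Pkp2 and Pard6a. The Pard6a call held in 8 of 16 alternatives. Cldn10 and Cldn15 were the 2 that passed as higher than in luminal cells, against 28.0% of all genes.

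In basal cells of Lgr5-DTR mice a subset of junction genes was higher than in wild type. Claudins led: Cldn3 was raised 11.5-fold in mean FPKM and Cldn23 6.02-fold, while Cldn4 and Cdh1 were near their wild type level. Of 28 tested members, 10 passed the threshold, 9 higher and 1 lower, against 11% of the 9755 genes tested (6.5% higher and 4.46% lower). The median difference was 0.38 over the tested members and 0.02 over all genes. Groups did not overlap in 16 members that were higher and 3 that were lower, against 17.5% and 13.7% of all genes (31.1% together).

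Cldn3, which seals simple epithelia, was at 146, 436 and 258 FPKM in Lgr5-DTR basal libraries and 25.8, 20.8 and 26.2 in wild type ones, a difference of 3.34 (SE 0.35, limma adjusted p = 0.0016). The lowest Lgr5-DTR library was far above the highest wild type one. Its mean basal level was 6.88% of the luminal mean in wild type and 44.3% in Lgr5-DTR mice. Cldn23 was at 9.06, 10.1 and 5.07 FPKM against 2.20, 1.26 and 0.566, a difference of 1.97 (SE 0.31, limma adjusted p = 0.0071), and its basal mean went from 9.48% to 41.5% of the luminal mean. Both genes belong to the luminal profile of wild type prostate. Cldn8, the other abundant luminal claudin, was at 2.80, 1.16 and 0.426 FPKM against 1.09, 2.62 and 2.84 and did not pass (difference -0.44, SE 0.38, limma adjusted p = 0.50). Its basal mean was 2.25% of the luminal mean in wild type and 2.1% in Lgr5-DTR mice.

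Cldn1 and Cldn7 were higher by smaller amounts. Cldn1 was at 452, 622 and 585 FPKM against 360, 280 and 288 (difference 0.83, SE 0.18, limma adjusted p = 0.023). Cldn7, a claudin of the lateral membrane, was at 312, 668 and 529 FPKM against 285, 209 and 223 (difference 1.01, SE 0.28, limma adjusted p = 0.0497). In both genes the groups were separate, with the lowest Lgr5-DTR value, in library 1, close to the highest wild type one. Cldn4 was at 3168, 6702 and 4468 FPKM against 3701, 4263 and 4038, overlapping (difference 0.19, SE 0.26, adjusted p = 0.67 by limma), and its part of the claudin FPKM sum was 76.2 to 79.3%, below the wild type range.

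**Figure D2:**
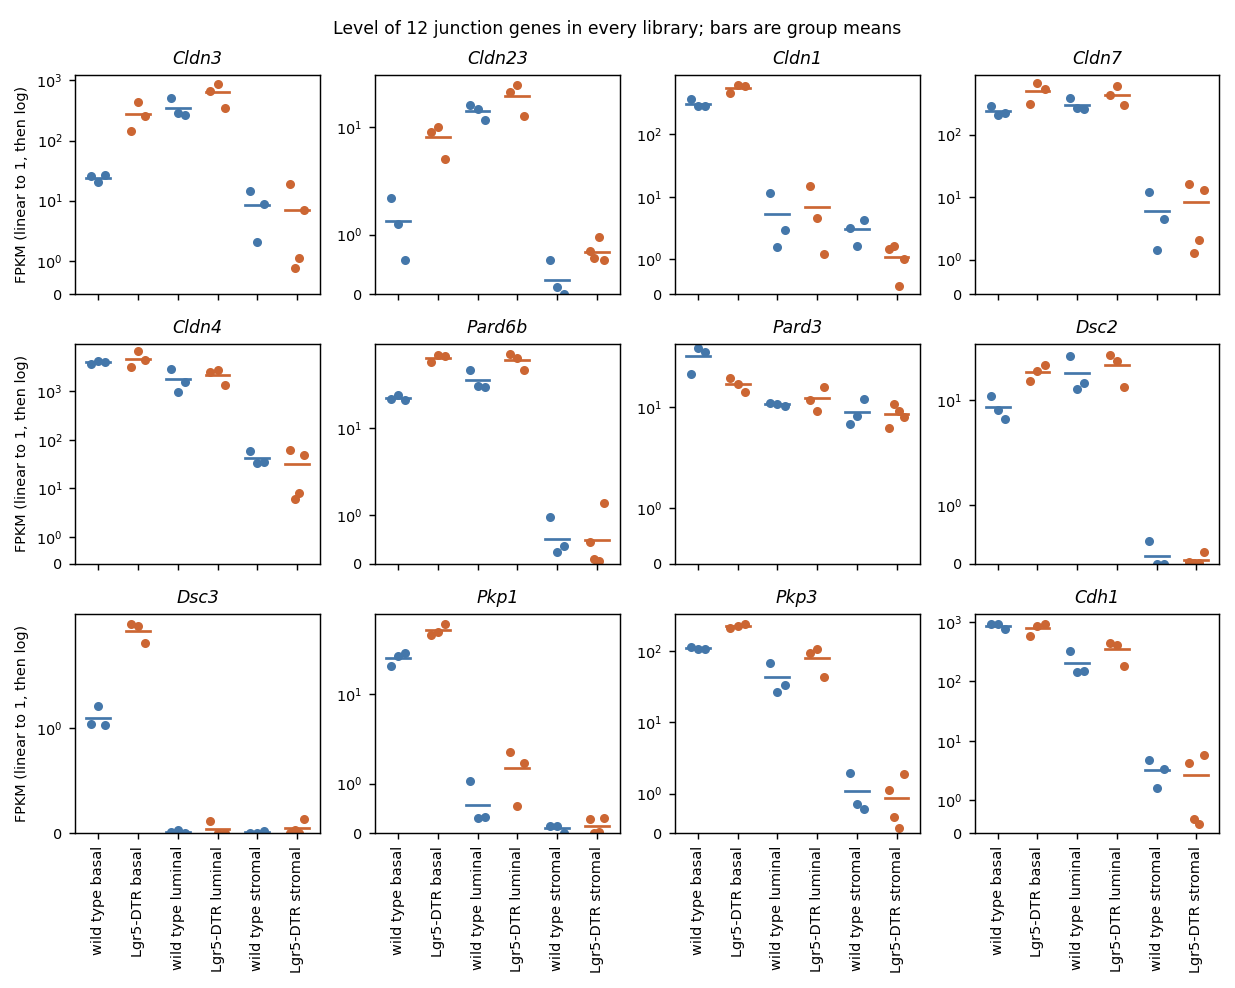
FPKM of 12 members in every library by group, blue for wild type and orange for Lgr5-DTR, on an axis that is linear to 1 and logarithmic above; bars are group means. In basal cells Cldn3, Cldn23, Pard6b, Dsc2, Dsc3, Pkp1 and Pkp3 separate fully by genotype, while Cldn4 and Cdh1 overlap.

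Pard6b, a scaffold of the polarity complex, was at 57.0, 68.3 and 66.9 FPKM in Lgr5-DTR and 21.3, 23.9 and 20.97 in wild type basal libraries (difference 1.49, SE 0.14, limma adjusted p = 0.0011). Pard3, its partner in that complex, was the 1 member that was lower: 19.5, 17.1 and 14.3 FPKM against 21.7, 39.0 and 35.7 (difference -0.85, SE 0.23, limma adjusted p = 0.048). Pard6g was at 22.4 to 23.9 FPKM against 24.2 to 28.7 (difference -0.19, limma adjusted p = 0.42). Of the 3 tested polarity genes, 1 was thus higher, 1 lower and 1 did not pass, against 6.5% higher and 4.46% lower over all genes.

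Of 10 tested desmosome genes 4 rose and 0 fell, against 6.5% and 4.46% of all genes. The 4 were 2 of 4 cadherins and 2 of 6 plaque genes. The basal plakophilin Pkp1 was at 46.1, 49.9 and 60.9 FPKM against 20.9, 26.9 and 28.6 (difference 1.01, SE 0.17, limma adjusted p = 0.0089). Pkp3 was at 211, 222 and 238 FPKM against 112, 105 and 107 (difference 1.04, SE 0.14, limma adjusted p = 0.003). Dsc2, the desmocollin of simple epithelia, was at 15.1, 18.9 and 21.8 FPKM against 11.02, 8.10 and 6.67 (difference 1.04, SE 0.21, limma adjusted p = 0.016). Dsc3, a desmocollin of basal layers, was at 3.54, 3.44 and 2.80 FPKM against 1.05, 1.30 and 1.04 (difference 1.00, SE 0.18, limma adjusted p = 0.011). The groups were separate in all 4 genes, as in 17.5% of all genes in this direction. Dsg2 missed the threshold, with 18.3, 26.0 and 25.6 FPKM against 16.5, 15.02 and 13.0 (difference 0.61, limma adjusted p = 0.064).

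The common plaque proteins did not pass. Jup was at 244, 263 and 249.5 FPKM against 211, 232 and 213 (difference 0.21, SE 0.14, limma adjusted p = 0.38), a small shift with separate groups. Dsp was at 33.0, 18.6 and 18.9 FPKM against 25.9, 32.2 and 29.7 (difference -0.35, SE 0.23). Tjp1 differed by 0.15, Ocln by 0.32, Marveld2 by 0.16, Marveld3 by 0.39 and F11r by -0.31, and none of these passed. For Cdh1 the values were 580, 836 and 907 FPKM against 919, 933 and 749 (difference -0.18, SE 0.20, limma adjusted p = 0.61). The other members that did not pass were Cldn12, Cldn5, Pkp2, Pkp4 and Dsg3, with differences of 0.16 to 1.14.

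**Figure D3:**
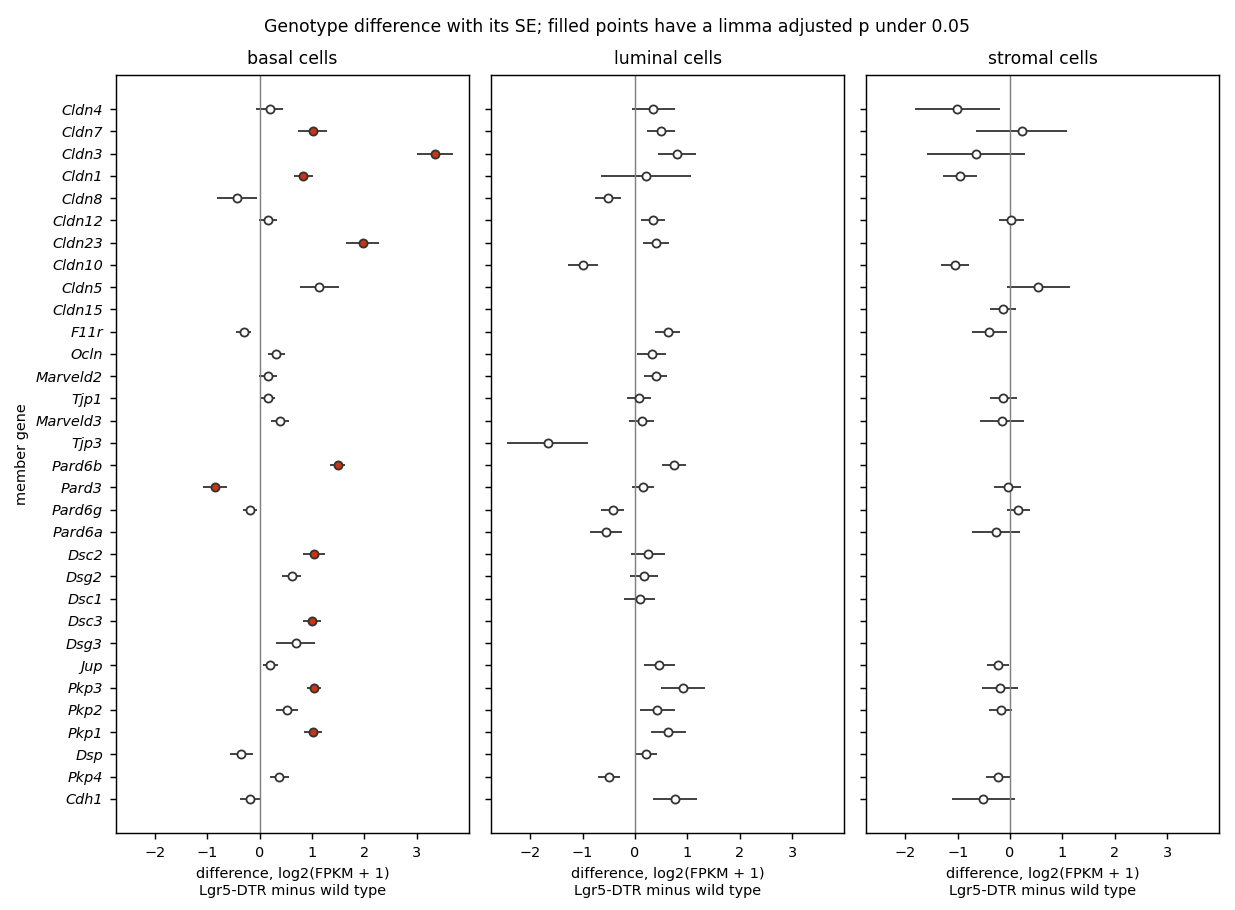
Difference of Lgr5-DTR minus wild type on the log2(FPKM + 1) scale with its SE, for tested members in basal, luminal and stromal cells; filled points passed the limma threshold. Filled points appear in the basal panel alone, led by Cldn3 at 3.34.

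Cldn3, Cldn23, Pard6b, Pkp1 and Pkp3 passed in each of the 15 alternative analyses, leaving out any 1 basal library included. Cldn1 and Dsc2 lost the call without Lgr5-DTR basal library 2 or 3 or wild type basal library 2 or 3, at limma adjusted p values of 0.071 to 0.12 and 0.062 to 0.082. Dsc3 lost it without Lgr5-DTR library 2 or wild type library 3 (0.054 to 0.063). Cldn7 and Pard3 held in 5 of 15 alternatives each, with limma adjusted p values up to 0.18 and 0.19. Cldn7 was lost without any 1 library other than Lgr5-DTR 1 (0.061 to 0.18), and also with TMM-style scaling, no filter, no variance trend, a pseudocount of 0.1 or the replicate block. Pard3 was lost without Lgr5-DTR 2 or 3 or wild type 2 or 3 (0.15 to 0.19), and also with its most abundant transcript alone (difference -0.49), no filter, no variance trend, the status set as a covariate, a pseudocount of 0.1 or the block. Cldn1 and Dsc2 were also lost with no filter and with the block, and Dsc3 with the block. All these differences kept their sign.

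Markers of other cells and of basal cells were measured beside these changes. The 11 luminal markers summed to 5009, 4896 and 3727 FPKM in Lgr5-DTR basal libraries and 4464, 3821 and 4224 in wild type ones, and their mean log2 levels were 5.39 and 5.51 (exact two-sided permutation p = 0.8, where 0.1 is the smallest that 3 against 3 libraries allow). Of 10 tested luminal markers 1 rose, against 6.5% of all genes: Tspan1, from a mean of 11.1 to 31.2 FPKM (limma adjusted p = 0.0088). That was 2.23% of a luminal mean of 497 FPKM in wild type and 10.8% of 289 in Lgr5-DTR mice. The other luminal markers tested did not pass, with differences from -1.32 for Hoxb13 to 0.57 for Cd24a. The secretory gene Pbsn was at a basal mean of 93.5 against 136 FPKM. Markers of the basal cells themselves moved in both directions. The 12 summed to 8282, 9432 and 9835 FPKM in Lgr5-DTR and 13822, 11479 and 10799 in wild type libraries, without overlap. Most of that sum came from Krt14, Krt15 and Krt17 (means of 2389, 2802 and 2467 FPKM against 3246, 4526.5 and 3057). The mean log2 levels of the list overlapped, at 7.80 against 7.88 (exact permutation p = 0.4). Among the 12, Trp63 (-1.26), Krt15 (-0.70) and Dst (-1.12) fell and Col17a1 (0.98) rose, against 4.46% and 6.5% of all genes. The part of these shifts in the junction genes was not tested. The 5 urothelial markers had a mean log2 level of 1.68 against 1.06 (exact permutation p = 0.1) and summed to at most 24.2 FPKM. Endothelial markers were at 1.51 against 1.07 (exact permutation p = 0.1), and Cldn5, the endothelial claudin, was at 6.03, 1.93 and 3.14 against 1.60, 0.266 and 1.42 FPKM; the part of endothelial RNA in that value was not tested. Fibroblast markers summed to 569.5 to 1072 FPKM in Lgr5-DTR and 988 to 1221 in wild type basal libraries. Of the 10, 2 reached 1 FPKM in each Lgr5-DTR basal library and 3 or 4 in wild type ones, so the sums rest on few genes. Of 3 tested fibroblast markers 2 fell, and of 4 tested smooth muscle markers 2 fell, against 4.46% of all genes. The mean log2 levels of these lists were 1.83 against 2.19 and 1.85 against 2.36 (exact permutation p = 0.1 for each). Over all 30 marker comparisons the smallest adjusted p was 0.231. No list could have passed the threshold, since exact permutation allows no p under 0.1, or under 0.057 for 4 against 3 libraries. The adjusted values therefore cannot decide whether a list differed. In basal cells the fibroblast, smooth muscle, endothelial, Schwann cell and urothelial lists were at the minimum of 0.1, without overlap of the genotypes. The other lists had a larger p there. These are bulk samples, in which fewer cells of a type and less RNA per cell cannot be told apart.

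Other genes of cell contact were counted by list in the same basal comparison. Over all genes 6.5% rose and 4.46% fell in that comparison. Among the epithelial adhesion and serine protease genes, those that rose included Spint1, an inhibitor of membrane serine proteases, from a mean of 40.7 to 136 FPKM, Prss8 from 7.78 to 23.1 and Epcam from 405 to 1001. Of 10 transcription factors of epithelial junctions 4 rose and 0 fell. Grhl3, a Grainyhead-like factor of barrier epithelia, had a median of 11.3 FPKM in Lgr5-DTR and 0.84 in wild type basal libraries (difference 2.85, SE 0.22, limma adjusted p = 0.00058), and its levels in luminal and stromal libraries were at most 0.288. Ovol1 (difference 1.31), Elf3 (1.33) and Klf5 (0.69) were the other 3. The E-cadherin repressor Snai2 was at a mean of 23.8 against 50.7 FPKM and did not pass (difference -1.21, SE 0.39, limma adjusted p = 0.089), nor did Twist2, the other of 2 tested.

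Of 19 other tight junction genes 1 rose and 1 fell, a share near that over all genes: Crb3, an apical polarity protein (difference 1.30), and the multi-PDZ scaffold Mpdz (-0.87). Among 12 other adherens junction genes 2 rose and 1 fell, the afadin gene Mllt4 (0.74), the nectin Pvrl4 (0.81) and P-cadherin, Cdh3 (-1.02, from a mean of 39.0 to 18.6 FPKM). Hemidesmosome genes anchor basal cells to the matrix; of 6, Plec (1.12) and Col17a1 (0.98) rose and Dst (-1.12) fell, Col17a1 and Dst also being in the basal marker list. The plakin Evpl (1.28) rose among 3 tested. The medians of these lists were -0.16, 0.01, 0.23 and 0.29 in that order and 0.30 for the transcription factors, against 0.02 over all genes.

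In luminal cells none of 29 tested members passed, while 3.14% of 10524 genes did (2.62% higher and 0.513% lower). By limma 4 members had an unadjusted p under 0.05. Their median difference was 0.32, against 0.10 over all genes. Pard6b was again higher in Lgr5-DTR mice, at 70.0, 63.1 and 46.3 FPKM against 46.4, 30.3 and 29.6 (difference 0.75, SE 0.23, limma adjusted p = 0.10), the lowest Lgr5-DTR value, in library 3, lying just under the highest wild type one. The groups did not overlap in 2 members, both lower, against 27.1% of all genes in either direction and 9.63% lower: Cldn10 at 0.949, 1.37 and 2.27 against 3.07, 5.66 and 3.42 FPKM (difference -0.99, SE 0.28, limma adjusted p = 0.088), and Pard6g at 2.36, 3.02 and 2.37 against 3.47, 3.50 and 4.48. Tjp3 was listed at 0 in Lgr5-DTR luminal libraries 1 and 2, at 6.75 FPKM in library 3 and at 4.57 to 6.66 in wild type. Without Lgr5-DTR luminal library 3, 4 members passed, Cldn3 and Pard6b higher and Cldn10 and Tjp3 lower, and without wild type luminal library 1 Pard6b passed.

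Wild type luminal library 1 and Lgr5-DTR luminal libraries 1 and 2 stood apart from the other 3. They held more Cdh1 (320, 443 and 414 FPKM against 141 to 182) and Pkp3 (67.5, 92.5 and 104 against 26.4 to 42.6), both members of the basal profile. The split was not limited to that profile. Of the luminal profile, Cldn3 was highest (500 FPKM) and Cldn8 lowest (84.1) in wild type luminal library 1 among the wild type luminal libraries. The summed claudin FPKM was 3948, 3745 and 4355 in the libraries that stood apart and 1696, 2210 and 2118 in the other 3. The 12 basal markers summed to 569, 641 and 390.5 FPKM in the libraries that stood apart and to 174, 206 and 222 in the others. The part of these markers in the luminal values was not tested. Schwann cell markers were at a mean log2 of 3.32 in Lgr5-DTR and 2.31 in wild type luminal cells (exact permutation p = 0.1). At the same p, luminal markers were at 8.15 against 8.49, fibroblast markers at 2.63 against 2.17 and urothelial markers at 3.32 against 2.89. Ovol1 (difference 1.36), Cdh2 (1.499) and Gjc1 (1.40) rose and Gjb2 (-1.19) fell among the listed genes in luminal cells.

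In stromal cells none of 20 tested members passed, against 1.17% of 10689 genes (0.0655% higher and 1.1% lower); 2 had an unadjusted p under 0.05 by limma. These were Cldn10 and Cldn1, whose groups did not overlap, against 9.39% of all genes for lower and 1.8% for higher values. Cldn10 was at 6.84, 4.44, 5.98 and 6.25 FPKM in Lgr5-DTR and 14.2, 8.76 and 18.1 in wild type stromal libraries (difference -1.05, SE 0.27, limma adjusted p = 0.11). Cldn1 was at 1.46, 1.62, 0.225 and 1.01 FPKM against 3.20, 1.63 and 4.25. The 10 fibroblast markers summed to 5837 to 7918 FPKM in Lgr5-DTR and to 13768 to 17170.0 in wild type stromal libraries, without overlap, and their part in the Cldn10 values was not tested. Jup, Pard3, Pkp2 and Cldn12 overlapped between the genotypes.

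Epithelial members varied together over the stromal libraries. Cldn4 was at 62.4 and 48.6 FPKM in Lgr5-DTR stromal libraries 1 and 4 and at 6.08 and 7.93 in libraries 2 and 3, while wild type libraries held 58.8, 34.2 and 35.4. Within each genotype Cldn7, Cldn3 and Cdh1 were likewise highest in Lgr5-DTR libraries 1 and 4 and in wild type libraries 1 and 3. The luminal markers summed to 532, 117, 100.3 and 165 FPKM in the Lgr5-DTR libraries in order and to 587, 211 and 162 in wild type ones; their part in these members was not tested.

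**Figure D4:**
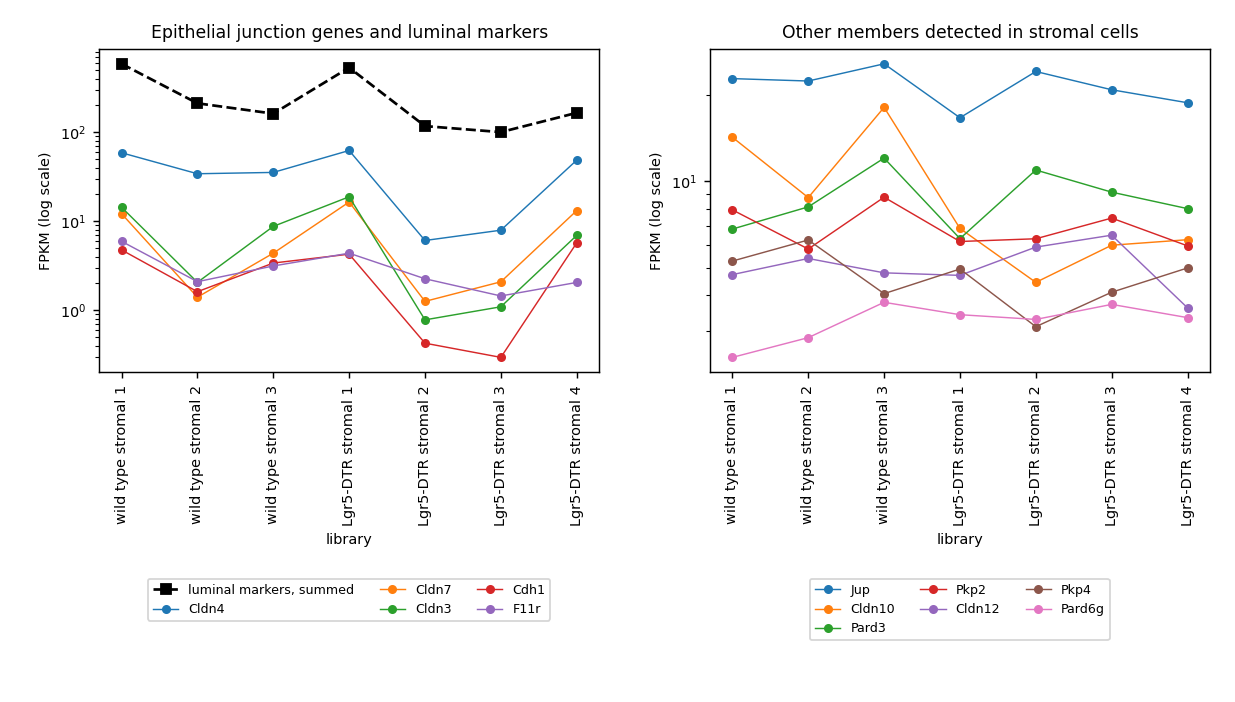
FPKM on a log axis in the 7 stromal libraries: on the left 5 epithelial members and the summed luminal markers, on the right 7 other members. The left lines dip together in Lgr5-DTR libraries 2 and 3, where Cldn4 is at 6.08 and 7.93 FPKM; on the right, Cldn10 is lower in each Lgr5-DTR library than in the 3 wild type ones.

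The genotype difference was compared between populations as an interaction in the fit of all 19 libraries. Between basal and luminal cells 2 of 33 members passed, both with the larger rise in basal cells, against 4.45% of all genes (1.13% in this direction and 3.31% in the other): Dsc3 (0.96, SE 0.19, limma adjusted p = 0.0067) and Cldn23 (1.57, SE 0.41, limma adjusted p = 0.033). Cldn3 did not (2.55, SE 1.10, limma adjusted p = 0.22). Between stromal and basal cells 4 passed, all with the stromal difference below the basal one, against 4.26% of all genes (3.17% in this direction): Dsc3 (-0.95, limma adjusted p = 0.0062), Pard6b (-1.57, 0.02), Cldn23 (-1.48, 0.039) and Cldn3 (-3.99, 0.045). In stromal libraries Dsc3, Pard6b and Cldn23 were at most 0.138, 1.39 and 0.951 FPKM. The stromal interactions of Pard6b and Cldn23 thus set the basal difference against low groups and mostly restate it. Dsc3 reached 1 FPKM in the 6 basal libraries alone, with at most 0.117 in luminal ones, so both Dsc3 interactions set the basal difference against groups near 0 and add nothing to it. Between stromal and luminal cells 0 passed by limma, with 6 at an unadjusted p under 0.05, and 4.78% of all genes passed (0.34% with the higher stromal and 4.44% with the higher luminal difference). The Dsc3 calls were lost with a pseudocount of 0.1 alone (limma adjusted p = 0.28 and 0.42). The Cldn23 call between basal and luminal cells held in 12 of 23 alternatives, with limma adjusted p up to 0.13; it was lost without Lgr5-DTR basal 1 or 2, Lgr5-DTR luminal 1 or 3, wild type basal 2 or 3, or wild type luminal 1 or 2. Between stromal and basal cells Cldn23 held in 10 of 24 (up to 0.65), lost without any 1 of the 4 Lgr5-DTR stromal libraries, Lgr5-DTR basal 1 or 2, wild type basal 2 or 3, or wild type stromal 1 or 2. Cldn3 held there in 9 of 24 (up to 0.13), lost without Lgr5-DTR basal 2 or 3, Lgr5-DTR stromal 2 or 3, any 1 wild type basal library, or wild type stromal 1 or 3. Pard6b held in 19 of 24, lost without Lgr5-DTR basal 2 or 3, wild type basal 3 or wild type stromal 1 (0.055 to 0.066).

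**Figure D5:**
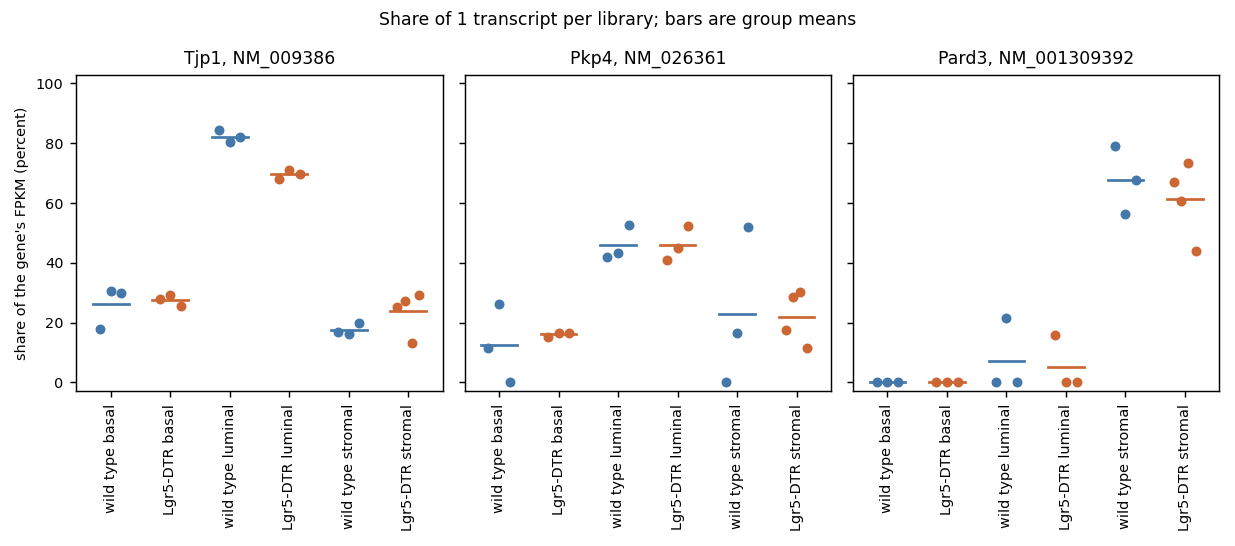
Percent of a gene's FPKM assigned to 1 transcript in each library, by group, blue for wild type and orange for Lgr5-DTR, with group means as bars. The Tjp1 transcript NM_009386 lies at 68.2% or more in each luminal library and at 30.6% or less in all others.

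Several members differed between groups in the transcript that led. Among 17 members with more than 1 transcript, 14 reached a group mean of 1 FPKM, and in 5 the leading transcript differed between groups: Tjp1, Pard3, Cldn12, Dsc1 and Pard6a. Shares rest on Cufflinks' division of reads among transcripts. For Tjp1, NM_009386 held 84.5, 80.3 and 82.0% of its FPKM in wild type luminal libraries and 17.9, 30.6 and 29.8% in wild type basal ones, where NM_001163574 led, as it did in stroma. The summed Tjp1 level hardly differed between these populations (11.2 to 13.1 FPKM in basal and 12.2 to 19.5 in luminal libraries). In Lgr5-DTR luminal libraries the share was 68.2, 71.1 and 69.7%, below each wild type luminal value (69.7 ± 1.46% against 82.3 ± 2.07%, both SD with n = 3; p = 0.1 by exact permutation, two-sided, the smallest possible, and 0.4 after Benjamini-Hochberg adjustment over 12 share comparisons).

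Pard3 used NM_001309392 for 56.2 to 79.0% of its FPKM in wild type and 43.9 to 73.5% in Lgr5-DTR stromal libraries, and this transcript was listed at 0 in all 6 basal libraries, where NM_001309391 led. For Pkp4, whose leading transcript by mean was the same in all groups, NM_026361 held 41.9 to 52.6% in wild type luminal, 0 to 26.1% in basal and 0 to 51.9% in wild type stromal libraries. In Cldn12, Dsc1 and Pard6a the libraries of at least 1 group did not all have the same leading transcript. Dsc1 reached a mean of 1 FPKM in the luminal groups alone, where its leading transcript differed between the genotypes. For Cldn12 the leading transcript differed in Lgr5-DTR basal cells alone. The 3 transcripts plotted were picked after their shares had been seen.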

How the data were processed

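Each library has a deposited table of FPKM for RefSeq transcripts. TopHat2, Cufflinks and mm10 are named in the submitters' processing notes; versions are not given in the sources used here. They also give read coverage per transcript, per the file headers, from which the deposited signal times transcript length gave the depth. Depth is not a count, so no counting interval was made.

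FPKM were summed per gene symbol (Python 3.11.15; numpy 2.4.6; pandas 2.3.3). Counts were not used here; log2(FPKM + 1) was fitted by limma 3.58.1 (R 4.3.3) with an intensity trend and robust moderation, for genes with at least 3 libraries at 1 FPKM and no failed status, with Benjamini-Hochberg adjustment over all genes at 0.05. Genotypes were compared within each population as Lgr5-DTR minus wild type, populations and interactions in 1 fit of 19 libraries. Fits were tested on simulated data. Marker means and transcript shares were compared by exact permutation (scipy 1.17.1), adjusted over 30 and 12 tests. Statmod 1.5.0 estimated block correlations and matplotlib 3.10.9 drew the plots.

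The members, the 8 gene lists and the 10 marker lists were chosen with earlier results of these data known. Named members were those past the threshold (up to 15 per comparison), the 4 most abundant of each family, and up to 4 listed genes per comparison by smallest p. Alternatives covered pseudocount, filter, scaling, transcript choice, empirical Bayes settings, blocks, status set and each library left out. One luminal marker was absent from the tables. Seminal vesicle markers summed to at most 1.00 FPKM in any library. Leukocyte and macrophage markers had mean differences between genotypes of 0.09 to 0.27 and 0.14 to 0.71 (log2), with exact permutation p of at least 0.2. Smooth muscle markers differed by -0.52 in basal and 0.55 in stromal cells. Their exact permutation p was 0.1 and 0.057, the smallest possible there, and the libraries of the genotypes did not overlap. In luminal cells their difference was 0.13 (exact permutation p = 0.8). Some items are not reported here.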

Additional observations from a re-analysis of the deposited data

Results flagged for a closer look

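Cldn8 in Lgr5-DTR stromal library 1 was at 1.118 FPKM, far from the other 3 of its group (0.142, 0.200 and 0.0522), by Dixon's test. This was 1 of 26 members tested in that group, the only group of 4. Chance marks about 1 in 20 independent tests, but the 26 share the same 4 libraries, so that rate is no firm yardstick here. That library also had the highest sum of luminal markers of its group, 532 FPKM, whose part was not tested.

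The genotype difference differed between basal and luminal cells for Cldn23 (1.57) and Dsc3 (0.96), and between stromal and basal cells for Cldn23 (-1.48), Cldn3 (-3.99), Dsc3 (-0.95) and Pard6b (-1.57), by limma's interaction test over all genes. In luminal cells Cldn23 was high in both genotypes, at 12.7 to 24.7 FPKM in Lgr5-DTR and 11.6 to 15.9 in wild type libraries, and Dsc3 was at most 0.117, so its values repeat the basal difference. In stromal cells Cldn23 and Pard6b were low in both genotypes, so their stromal values mostly repeat the basal difference as well. Cldn3 ranged from 0.780 to 18.8 FPKM over the Lgr5-DTR stromal libraries.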

How the results depend on the processing

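No called member changed sign in any alternative. Of the members called between wild type populations, 20 of 25 (basal and luminal), 24 of 26 (stromal and basal) and 24 of 24 (stromal and luminal) were called in every alternative. In basal cells the 10 genotype calls became 6 with no filter on low values, and 5 to 13 when 1 library was left out. In luminal cells the count went from 0 to 1 with the status set as a covariate (Cldn10 lower), and to 0 to 4 with 1 library left out; in stromal cells it was 0 with any library left out. For the difference of genotype effects between basal and luminal cells, 2 calls became 1 with no filter, 0 with a pseudocount of 0.1, 1 with the filter at 5 FPKM, which drops Dsc3, and 1 to 3 with 1 library left out. Between stromal and basal cells, 4 became 2 with TMM-style scaling, 2 with no filter, 0 with the pseudocount of 0.1, 2 with quantile scaling and 1 to 3 with 1 library left out. Between stromal and luminal cells, 0 became 1 with quantile scaling (Pard6g) and 0 to 1 with 1 library left out. Apart from the filters, which change the genes tested, and the smaller sample, the cause was not tested.

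The sample number as a replicate block gave 5 calls in basal cells, 1 in luminal (Pard6b higher), 2 in stromal (Cldn10 lower, Cldn5 higher) and 1 between stromal and luminal cells (Pard6b). The deviations of same-numbered libraries of the 2 genotypes correlated at -0.486, -0.194 and -0.343 in basal, 0.35, -0.109 and 0.241 in luminal and 0.346, 0.463 and -0.042 in stromal cells. Libraries sharing the title number within a genotype correlated at -0.017 to 0.355, with an estimated block correlation of 0.219. Neither set was above 0.1 in every pair, and the main fits took the libraries as independent. A partial pairing stays possible, above all by title number, where wild type basal 2 with luminal 2 (-0.017) was the sole pair below 0. Not every library correlated best with its own number.

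Scaling moved the median difference of all genes in luminal cells from 0.10 to 0.01 (TMM-style) and -0.04 (quantile), so small luminal differences are relative to that shift. Low members such as Dsc3 and Cldn23 are limited by depth and by the pseudocount.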
